A study of Homo sapiens with 12 samples.

Results

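The genes described here are the numbered members of the tumour necrosis factor (TNF) ligand superfamily (TNFSF) and the TNF receptor superfamily (TNFRSF), without TNFSF10 and its receptors TNFRSF10A to TNFRSF10D. They were taken by symbol from the probe sets of an Affymetrix array that carry exactly 1 gene symbol. No level was used to pick single genes, but the families were chosen with earlier results of these data known. This gave 24 of 18417 genes, 8 ligands and 16 receptors, each with 1 probe set. TNFSF12 and TNFSF13 share a probe set, and TNFRSF6B shares one with RTEL1, so none of these is among them.

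Total RNA of cultured human pancreatic ductal adenocarcinoma cells was amplified, labelled with biotin and hybridized to 12 arrays, 3 for each of 4 groups. AsPC1-R is a derivative of the AsPC1 line maintained in 1.67 µM cisplatin, a platinum drug that crosslinks DNA, and AsPC1 is its parental line. BxPC3-R is a derivative of the BxPC3 line maintained in 0.60 µM cisplatin, and BxPC3 is its parental line. Both parental lines were grown without the drug, and the last passage of both derivatives was drug-free as well. The comparisons ask how each derivative differs from its parental line, whether these 2 changes differ from each other, and how the parental lines differ. There is 1 derivative per line, and the labels do not say that the 3 arrays of a group came from separate cultures. The p-values therefore measure the spread between these samples, which may be technical.

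Values are the deposited log2 levels, so a difference of 1 is a 2-fold difference. Tests compare groups for the same probe set. Between genes, levels are set beside the readings of SMAD4 and CDKN2A only as a rough guide to low levels. Medians of single arrays ran from 6.48 to 6.65, and precision is limited by how many arrays each group has. The 9 epithelial markers averaged 9.97 to 10.22 on every array, with single genes called in both directions (3 in AsPC1-R, 5 in BxPC3-R, where KRT8 changed by 1.12 and MUC1 by -0.75). Among leukocyte markers PTPRC averaged 3.19 to 3.27 in the 4 groups, while CD68, a lysosomal protein of macrophages, averaged 10.83 in AsPC1-R and 10.11 in AsPC1 (change 0.72) and 8.53 in BxPC3-R and 9.25 in BxPC3 (change -0.72), both called. ITGAM and CD22 also rose in AsPC1-R, by 0.43 and 0.84. SDC1, listed as a plasma cell marker, averaged 8.56 to 9.30 in the 4 groups and was called lower in AsPC1-R, at -0.29. The other B cell, plasma cell and myeloid markers measured were not called in AsPC1-R. Of 7 fibroblast markers, 1 was called in AsPC1-R, LUM, which was lower (-1.03), as were 8.64% of all genes. In BxPC3-R 2 were called, both higher, LUM (1.53, from 4.91 in BxPC3) and PDGFRA (1.21), as were 9.75% of all genes. The part of these markers in the results was not tested. SMAD4 and CDKN2A, which BxPC3 cells have lost, read 4.70 and 6.22 in BxPC3. CDKN2A itself read 5.75 in BxPC3-R and was called there (-0.47, adjusted p = 0.0249), so a call of about this size was made on a gene with no copy in the line. Of the 24 members, 6 stayed under 6.22 in every group (TNFRSF9, TNFRSF17, TNFSF4, TNFSF8, TNFSF11 and TNFSF13B), so changes of these are uncertain in size. Among the 3 BxPC3 arrays, replicate 2 stood apart: of 50 genes chosen because AsPC1 exceeded BxPC3-R most, it was the highest BxPC3 array for 50, by a median of 0.83. The main member results that rest on BxPC3 are therefore also given without BxPC3 replicate 2. Other groups were not checked in this way. Over all genes, the SD of the difference from the other arrays of its group was 0.25 and 0.21 for BxPC3 replicate 2, and 0.26 and 0.31 for AsPC1 replicate 2. Without BxPC3 replicate 2, the 5 differences between the derivatives and 13 of the 14 differences between the parental lines among the members still passed.

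TNF superfamily ligands are mostly trimeric membrane proteins that can be cut from the cell surface, and they act by clustering receptors on the same or neighbouring cells. Receptors with a death domain can start apoptosis, and most of the others bind TRAF adaptors and switch on NF-kB and stress kinases. Many of the pairs, such as TNFSF18 with TNFRSF18, TNFSF9 with TNFRSF9 and TNFSF4 with TNFRSF4, costimulate lymphocytes, while TNFRSF11B is a secreted decoy that captures TNFSF11. In carcinoma cells the receptors that are best known carry death or survival signals, for example TNFRSF1A, TNFRSF21 and TNFRSF12A.

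The promoters of 4 members are shown because the 2 ligands had the widest measured differences between the parental lines and the 2 receptors changed in opposite directions or differed in their change between the derivatives. Each runs 5′ to 3′ from 250 bases before to 50 after the first listed RefSeq gene start (GRCh38.p14), and 18 of the 24 members had an entry. Capitals mark a match on either strand to the AP-1 motif (TGANTCA), the TEAD motif (GGAATG), the TATA box (TATAAA) or the NF-kB consensus. TNFSF18 lies at chr1:173050892-173051191 (minus strand), TNFSF15 at chr9:114792481-114792780 (minus strand), TNFRSF21 at chr6:47309856-47310155 (minus strand) and TNFRSF9 at chr1:7940790-7941089 (minus strand).
TNFSF18: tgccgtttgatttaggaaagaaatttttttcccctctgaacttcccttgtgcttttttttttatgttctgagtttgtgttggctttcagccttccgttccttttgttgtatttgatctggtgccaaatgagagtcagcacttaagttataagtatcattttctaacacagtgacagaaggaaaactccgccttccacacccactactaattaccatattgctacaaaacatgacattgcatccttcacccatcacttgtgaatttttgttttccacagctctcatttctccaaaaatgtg
TNFSF15: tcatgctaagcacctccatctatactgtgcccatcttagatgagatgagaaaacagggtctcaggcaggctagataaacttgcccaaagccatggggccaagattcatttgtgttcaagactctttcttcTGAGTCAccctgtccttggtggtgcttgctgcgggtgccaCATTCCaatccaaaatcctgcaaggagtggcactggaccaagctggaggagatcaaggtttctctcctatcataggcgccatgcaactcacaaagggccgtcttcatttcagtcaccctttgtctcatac
TNFRSF21: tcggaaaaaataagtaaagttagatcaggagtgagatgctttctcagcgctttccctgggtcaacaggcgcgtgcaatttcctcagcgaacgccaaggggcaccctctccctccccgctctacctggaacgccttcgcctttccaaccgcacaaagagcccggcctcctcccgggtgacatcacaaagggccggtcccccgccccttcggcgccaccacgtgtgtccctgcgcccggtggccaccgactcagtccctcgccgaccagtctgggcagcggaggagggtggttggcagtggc
TNFRSF9: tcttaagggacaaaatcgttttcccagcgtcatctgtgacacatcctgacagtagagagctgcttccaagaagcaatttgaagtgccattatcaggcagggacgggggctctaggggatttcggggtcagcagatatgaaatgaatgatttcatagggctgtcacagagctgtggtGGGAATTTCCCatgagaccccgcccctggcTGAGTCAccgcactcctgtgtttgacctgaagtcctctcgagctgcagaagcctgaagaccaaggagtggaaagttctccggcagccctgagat

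The TNFSF18 and TNFSF15 windows hold 3 CpG dinucleotides each, at 38.0% and 49.3% G and C. The TNFRSF21 window holds 23 CpG at 63.3% and the TNFRSF9 window 8 at 52.3%. Across the members with an entry the 7 ligands had a median of 3.0 CpG and the 11 receptors a median of 12, beside 14 over all 27305 promoters. TNFSF15 has an AP-1 match at position -120 from the start and a TEAD match at -80. TNFRSF9 has an AP-1 match at -44 and NF-kB matches at -74 and -73 that overlap each other, while neither TNFSF18 nor TNFRSF21 has a match in this window. Of the 18 members, 4 had an AP-1 match (TNFRSF8, TNFRSF9, TNFSF14 and TNFSF15), as did 7.76% of all promoters. An NF-kB match stood in 4 (TNFRSF9, TNFRSF14, TNFRSF25 and TNFSF14), against 10.8% of all promoters. A TEAD match stood in 2 (TNFRSF14 and TNFSF15) and 14% of all promoters, and a TATA box in 2 (TNFRSF18 and TNFSF9) and 12% of all promoters. A match describes the letters of the window and is not a measured binding site.

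In AsPC1-R, 7 of the 24 members passed an adjusted p of 0.05 against AsPC1 (limma, Benjamini-Hochberg over all genes), 6 higher and 1 lower. Over all genes 20.3% passed, 11.6% higher and 8.64% lower. In BxPC3-R, 5 passed against BxPC3, 2 higher and 3 lower, where 20.8% of all genes passed, 9.75% higher and 11% lower. The members' share was 29.2% in AsPC1-R and 20.8% in BxPC3-R, and their median log2 change was 0.03 and 0.02, beside -0.05 and 0.02 over all genes. The change itself differed between the derivatives for 5 members, 4 more positive in AsPC1-R and 1 more negative, and for 25.4% of all genes, 14.1% and 11.3% in these directions. Both derivatives had higher TNFRSF11B and TNFRSF12A, TNFRSF21 and TNFSF18 were higher in AsPC1-R and lower in BxPC3-R, and 16 members passed in neither.

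**Figure D1:**
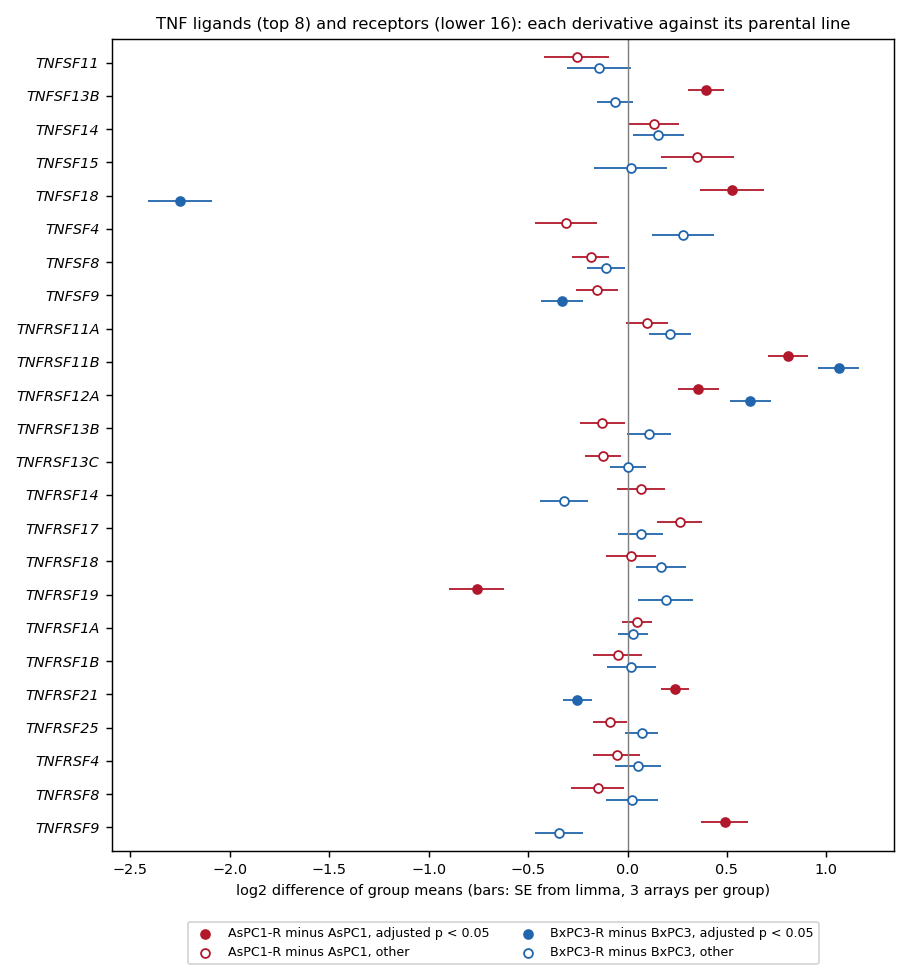
Log2 difference between each derivative and its parental line for the 8 ligands and 16 receptors, with standard errors from limma (3 arrays per group); filled points have an adjusted p under 0.05. TNFSF18 in BxPC3-R lies farthest from 0, at -2.25, and TNFRSF11B lies at 0.81 in AsPC1-R and 1.06 in BxPC3-R.

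Among the ligands, TNFSF18 had the largest measured log2 change. TNFSF18 is the ligand of TNFRSF18 and costimulates T cells, and its level was 5.42, 5.33 and 5.05 on the BxPC3-R arrays, against 7.17, 7.82 and 7.56 on the BxPC3 arrays. All 3 BxPC3-R arrays lay below all BxPC3 arrays and under the reading of the lost gene CDKN2A in BxPC3. TNFSF18 fell by 2.25 on the log2 scale in BxPC3-R (SE 0.16, adjusted p = 3.43e-07), and by 2.10 without BxPC3 replicate 2 (adjusted p = 1.88e-06). Because BxPC3-R read where a lost gene reads, the size of this fall is uncertain and no fold is given. In AsPC1-R it read 5.20, 5.17 and 4.74, against 4.50, 4.41 and 4.62 in AsPC1, without overlap but at levels near those of lost genes. That change was 0.52 (SE 0.16, adjusted p = 0.0342), and it no longer passed on leaving out AsPC1 replicate 1 or 2 (adjusted p 0.0824 and 0.101) or AsPC1-R replicate 1 or 2 (0.131 and 0.125). The change of TNFSF18 in AsPC1-R exceeded that in BxPC3-R by 2.77 (SE 0.23, adjusted p = 8.5e-07).

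Some endothelial markers fell in BxPC3-R beside TNFSF18, which endothelial cells are known to make. Of 7 such markers measured, 3 fell in BxPC3-R, where 11% of all genes fell. The list was chosen with earlier results of these data known, so this count is descriptive only. CDH5, the cadherin of endothelial junctions, read 6.67 in BxPC3-R, against 9.34 in BxPC3 (log2 change -2.67, adjusted p = 2.99e-08). TEK, the angiopoietin receptor, read 5.17 in BxPC3-R, against 6.88 in BxPC3 (-1.71, adjusted p = 3.95e-07). PECAM1, an adhesion molecule, read 6.04 in BxPC3-R, against 7.28 in BxPC3 (-1.24, adjusted p = 1.6e-05). In AsPC1-R, 1 of the 7 markers was called, PECAM1, which was 0.66 higher than in AsPC1 (adjusted p = 0.00292). CDH5 and TEK changed there by -0.16 and -0.13 and did not pass (adjusted p = 0.476 and 0.498). Without BxPC3 replicate 2 the changes of CDH5, TEK and PECAM1 in BxPC3-R were -2.58, -1.68 and -1.08, and each still passed. The list averaged 5.69 to 5.78 on the BxPC3-R arrays, against 6.49 to 6.56 on the BxPC3 arrays. KDR, VWF, TIE1 and ROBO4 did not pass and had group means between 5.04 and 6.38. The part of these markers in the fall of TNFSF18 was not tested. All samples are cultured carcinoma lines, and whether any of them held endothelial cells was not tested. In bulk RNA, fewer cells of a type and less RNA per cell cannot be told apart.

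TNFSF18 and TNFSF4 are neighbouring genes in RefSeq, and TNFSF4 is the ligand of TNFRSF4. Its group means were 3.99 in AsPC1-R, 4.29 in AsPC1, 4.49 in BxPC3-R and 4.21 in BxPC3, all at the level of lost genes, and it passed in neither derivative. The receptor of TNFSF18, TNFRSF18, averaged 7.60 ± 0.22 in AsPC1-R and 7.58 ± 0.17 in AsPC1, and 7.55 ± 0.16 in BxPC3-R and 7.38 ± 0.11 in BxPC3 (SD, n = 3 each). TNFRSF18 passed in no comparison.

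TNFSF13B, the B cell survival factor BAFF, read 5.48, 5.57 and 5.61 in AsPC1-R, against 5.29, 5.14 and 5.05 in AsPC1. The groups did not overlap, and the change was 0.39 (SE 0.09, adjusted p = 0.00618), at levels under that of a lost gene. In BxPC3-R it read 5.49, 5.44 and 5.43, against 5.39, 5.50 and 5.64 in BxPC3, with overlapping groups and a change of -0.06 (adjusted p = 0.714). These changes differed by 0.46 (SE 0.13, adjusted p = 0.0162), and by 0.46 without BxPC3 replicate 2 (adjusted p = 0.0294). Its 3 receptors among the members, TNFRSF13B, TNFRSF13C and TNFRSF17, passed in neither derivative.

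TNFSF9, the ligand of the lymphocyte receptor TNFRSF9, read 7.05, 7.29 and 6.99 in BxPC3-R, against 7.40, 7.47 and 7.45 in BxPC3. The groups did not overlap and the change was -0.33 (SE 0.11, adjusted p = 0.042). It did not pass without any 1 of the AsPC1-R or BxPC3 arrays, without BxPC3-R replicate 1 or 3, or with quantile normalization run once more, and without BxPC3 replicate 2 it was -0.31 (adjusted p = 0.108). In AsPC1-R the levels were 7.67, 7.61 and 7.67, against 7.88, 7.95 and 7.57 in AsPC1, with overlapping groups and a change of -0.15 (adjusted p = 0.355).

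TNFSF15, the ligand of the death receptor TNFRSF25, passed in neither derivative and differed between the lines. It read 10.49, 10.48 and 10.59 in AsPC1-R, against 10.35, 10.13 and 10.03 in AsPC1 (change 0.35, adjusted p = 0.214), without overlap. In BxPC3-R it read 5.87, 5.57 and 5.67, against 5.87, 6.07 and 5.13 in BxPC3, with overlapping groups under the lost-gene reading of 6.22 (change 0.02, adjusted p = 0.973). BxPC3 replicate 3 was the lowest of the 12 arrays, and without it the change in AsPC1-R had an adjusted p of 0.0399 and the difference between the derivatives was 0.62 (adjusted p = 0.0159). Its neighbour in RefSeq, TNFSF8, ligand of TNFRSF8, had group means of 5.53 in AsPC1-R, 5.72 in AsPC1, 5.41 in BxPC3-R and 5.52 in BxPC3. The other ligands, TNFSF11 and TNFSF14, passed in neither derivative.

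**Figure D2:**
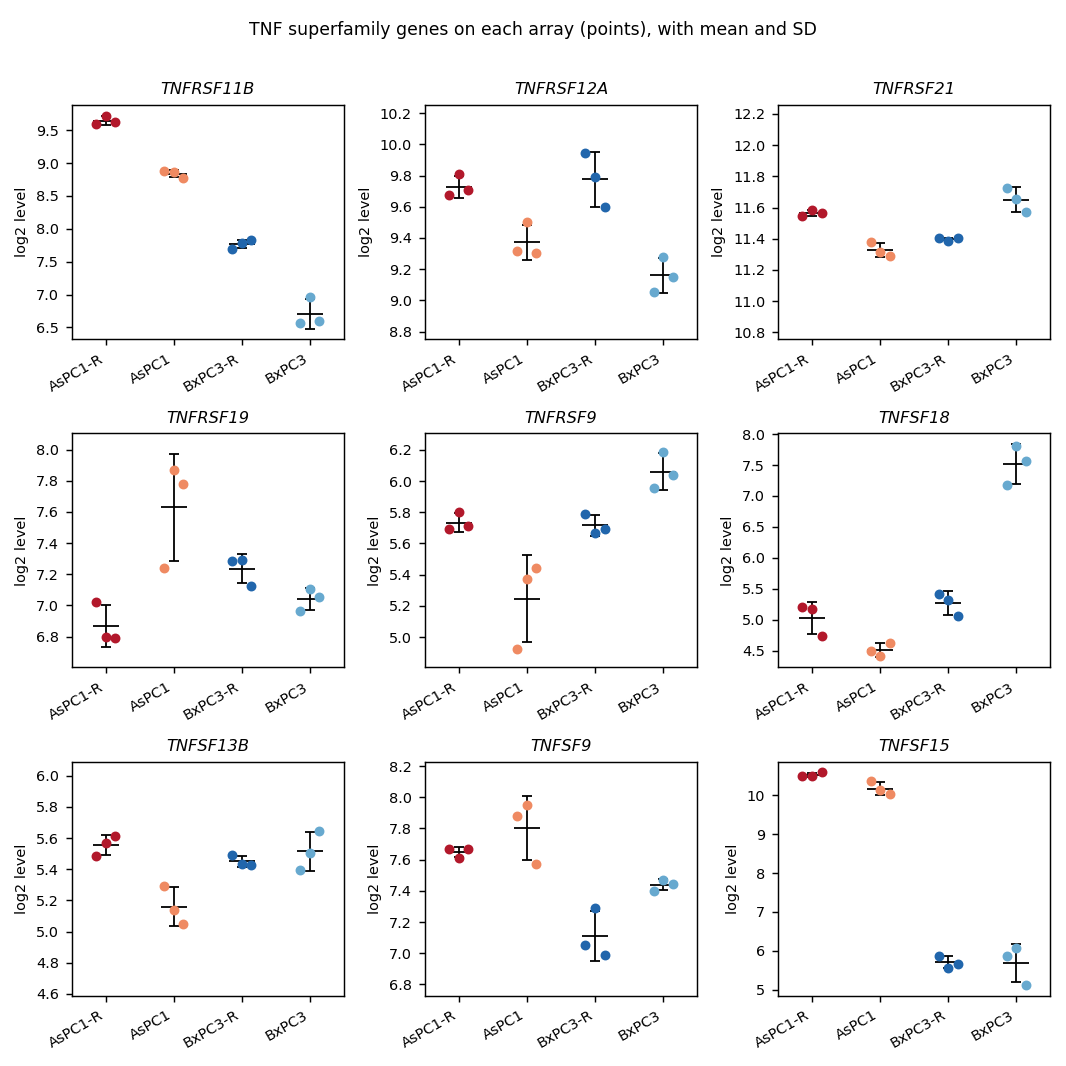
Log2 level on each of the 12 arrays for the 8 members called in a derivative and for TNFSF15, with the group mean (bar) and SD (n = 3 arrays); vertical scales differ between panels. TNFSF18 lies between 7.17 and 7.82 in BxPC3 and at or under 5.42 elsewhere, and TNFRSF11B is higher in each derivative than in its parental line.

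Among the receptors, TNFRSF11B and TNFRSF12A were higher in both derivatives. TNFRSF11B, the secreted decoy osteoprotegerin, read 9.59, 9.72 and 9.62 in AsPC1-R, against 8.87, 8.86 and 8.78 in AsPC1. In BxPC3-R it read 7.70, 7.78 and 7.83, against 6.57, 6.97 and 6.59 in BxPC3. In both pairs every derivative array lay above every parental array. It rose by 0.81 in AsPC1-R (SE 0.10, 1.75-fold, adjusted p = 6.68e-05) and by 1.06 in BxPC3-R (SE 0.10, 2.09-fold, adjusted p = 5.64e-06). These changes differed by -0.25 (adjusted p = 0.228), with a 95% interval of -0.57 to 0.06. Without BxPC3 replicate 2, the highest of its group, the rise in BxPC3-R was 1.19 (adjusted p = 1.08e-06) and the difference was -0.38 (adjusted p = 0.0292). Its ligand TNFSF11 and the signalling receptor TNFRSF11A (RANK) passed in neither derivative. TNFRSF11A averaged 7.10 ± 0.12 in AsPC1-R and 7.0 ± 0.18 in AsPC1, and 6.45 ± 0.12 in BxPC3-R and 6.23 ± 0.09 in BxPC3 (SD, n = 3 each). In BxPC3-R its groups did not overlap, with a change of 0.21 (adjusted p = 0.192) that passed with array weights (0.0331).

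TNFRSF12A, the receptor of TNFSF12 and an activator of noncanonical NF-kB, read 9.67, 9.81 and 9.70 in AsPC1-R, against 9.31, 9.50 and 9.30 in AsPC1. In BxPC3-R it read 9.95, 9.79 and 9.60, against 9.05, 9.28 and 9.15 in BxPC3. Neither pair of groups overlapped. It rose by 0.62 in BxPC3-R (SE 0.10, adjusted p = 0.000566), and by 0.67 without BxPC3 replicate 2 (adjusted p = 0.000999). In AsPC1-R the rise was 0.36 (SE 0.10, adjusted p = 0.0239) and did not pass without AsPC1 replicate 1 or 3 or AsPC1-R replicate 2 or 3 (adjusted p 0.0765, 0.0609, 0.0901 and 0.0524). The changes differed by -0.26 (adjusted p = 0.216), with a 95% interval of -0.57 to 0.05.

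TNFRSF21, a receptor with a death domain, moved in opposite directions. It read 11.55, 11.59 and 11.57 in AsPC1-R, against 11.38, 11.31 and 11.29 in AsPC1, and 11.40, 11.39 and 11.40 in BxPC3-R, against 11.73, 11.66 and 11.57 in BxPC3. Neither pair overlapped, though both changes were small, 0.24 in AsPC1-R (SE 0.07, adjusted p = 0.0318) and -0.25 in BxPC3-R (SE 0.07, adjusted p = 0.0224). The AsPC1-R call did not pass with only its 2 groups in the fit (adjusted p = 0.109), without any 1 AsPC1-R array, AsPC1 replicate 2 or 3, or BxPC3-R replicate 2 (0.0513 to 0.0857). The BxPC3-R call did not pass with arrays centred on their medians (adjusted p = 0.0534) or without any 1 BxPC3-R array or BxPC3 replicate 1 or 2, the last giving 0.0591. The difference between the changes was 0.49 (SE 0.10, adjusted p = 0.00268) and passed in every setting tried.

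TNFRSF19, a receptor without a death domain that is expressed in epithelia and developing tissues, was the member that fell in AsPC1-R. It read 7.03, 6.80 and 6.79 in AsPC1-R, against 7.24, 7.87 and 7.78 in AsPC1, without overlap. The change was -0.76 (SE 0.14, adjusted p = 0.0013). In BxPC3-R it read 7.29, 7.29 and 7.13, against 6.96, 7.11 and 7.06 in BxPC3, without overlap but with a change of 0.19 that did not pass (adjusted p = 0.406). The changes differed by -0.95 (SE 0.20, adjusted p = 0.00242).

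TNFRSF9, the costimulatory receptor CD137 of activated T cells, read 5.69, 5.80 and 5.71 in AsPC1-R, against 4.92, 5.37 and 5.44 in AsPC1, without overlap. The change was 0.49 (SE 0.12, adjusted p = 0.01). In BxPC3-R it read 5.79, 5.66 and 5.69, against 5.95, 6.19 and 6.04 in BxPC3, a change of -0.34 (adjusted p = 0.0589), without overlap. It passed with only its groups in the fit (0.0205), with array weights (0.00671) and without AsPC1 replicate 1 (0.0104) or 3 (0.04), and without BxPC3 replicate 2 it was -0.28 (adjusted p = 0.196). The changes differed by 0.83 (SE 0.17, adjusted p = 0.0023), at levels that stayed under 6.22 throughout. The T and NK cell marker list had 0 of 8 genes called in AsPC1-R by limma, also 0 at an unadjusted p under 0.05. In BxPC3-R 2 of 8 were lower (11% of all genes), CD3E (-0.47, adjusted p = 0.0184) and CD3G (-0.26, adjusted p = 0.031). Both lay under 6.22, and neither passed without BxPC3 replicate 2 (adjusted p = 0.0786 and 0.109).

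The other receptors passed in neither derivative. The TNF receptors TNFRSF1A and TNFRSF1B, which bind TNF with and without a death domain, changed by 0.05 and -0.05 in AsPC1-R and by 0.03 and 0.02 in BxPC3-R. Members that missed the threshold ranged from -0.31 to 0.35 in AsPC1-R and from -0.34 to 0.28 in BxPC3-R.

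Between the parental lines, 14 of the 24 members (58.3%) differed, 8 higher and 6 lower in AsPC1, where 50.6% of all genes differed, 27.7% higher and 22.9% lower. The widest measured differences were in 2 ligands: TNFSF15 was 4.48 higher in AsPC1 (SE 0.18, adjusted p = 8.26e-11) and TNFSF18 was lower in AsPC1, with a log2 difference of -3.01 (SE 0.16, adjusted p = 1.46e-09). TNFSF15 in BxPC3 (5.69) and TNFSF18 in AsPC1 (4.51) read where lost genes read, so the sizes are uncertain and no fold is given. Without BxPC3 replicate 2 these were 4.67 and -2.86. TNFRSF11B was 2.13 higher in AsPC1 (SE 0.10, 4.37-fold, adjusted p = 4.33e-10), or 2.26 without BxPC3 replicate 2, so BxPC3-R at 7.77 remained under AsPC1 at 8.84 despite its rise. The receptors TNFRSF11A, TNFRSF1B, TNFRSF19, TNFRSF13B and TNFRSF4 were 0.76, 0.65, 0.59, 0.40 and 0.34 higher in AsPC1, and TNFSF9 0.36 higher. TNFRSF9, TNFSF11, TNFSF13B, TNFRSF21 and TNFRSF1A were lower in AsPC1, at -0.81, -0.59, -0.35, -0.32 and -0.27. Of these, TNFRSF4 did not pass without AsPC1 replicate 2, BxPC3 replicate 2 or BxPC3 replicate 3 (adjusted p 0.11, 0.117 and 0.0772) or with only its groups in the fit (0.0724), and its groups overlapped. TNFSF9 had an adjusted p of 0.05 without AsPC1 replicate 2. Members that missed the threshold lay between -0.18 and 0.21.

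**Figure D3:**
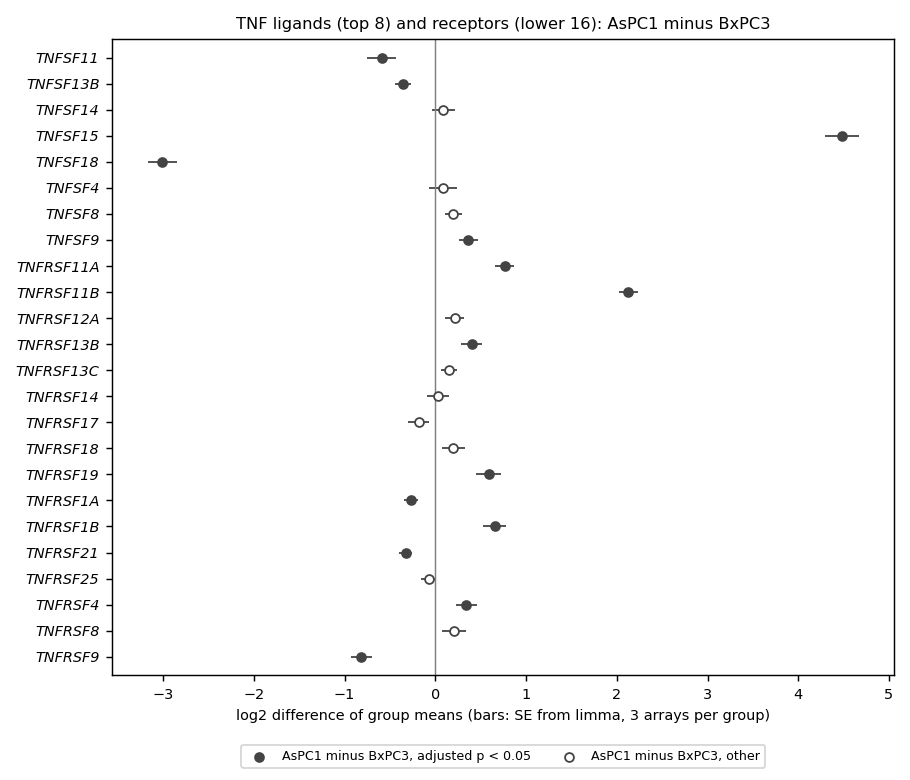
Log2 difference between AsPC1 and BxPC3 for the 8 ligands and 16 receptors, with standard errors from limma (3 arrays per group); filled points have an adjusted p under 0.05. TNFSF15 lies at 4.48 and TNFSF18 at -3.01, and TNFRSF11B at 2.13.

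Related genes were read from lists of superfamily members without a number, adaptors, the noncanonical NF-kB arm and the enzymes that shed ligands and receptors. These lists were chosen with earlier results of these data known, so their counts are descriptive only. Of 6 other ligands, none was called in either derivative by limma, where 3 in AsPC1-R and 1 in BxPC3-R had an unadjusted p under 0.05. The changes of TNF and LTB differed between the derivatives by 0.53 each (adjusted p = 0.0372 and 0.0271), and neither held throughout. The TNF difference, at levels under 6.22, did not pass on leaving out any 1 of 9 arrays, all but AsPC1 replicate 2, AsPC1-R replicate 3 and BxPC3 replicate 2 (adjusted p 0.0604 to 0.0904). The LTB difference did not pass on leaving out AsPC1 replicate 3, AsPC1-R replicate 1 or 3, BxPC3 replicate 1 or BxPC3-R replicate 3 (0.0543 to 0.0683) or with quantile normalization run once more (0.0592), and LTB had a difference of 0.32 and an adjusted p of 0.18 on the mean of its probe sets. Of 8 other receptors, 3 were called in AsPC1-R (37.5%, beside 20.3% of all genes), 1 higher and 2 lower, and 2 were lower in BxPC3-R (25%, beside 20.8%). FAS, a death receptor, read 9.73, 9.60 and 9.57 in AsPC1-R, against 9.09, 9.51 and 9.21 in AsPC1, and 9.16, 9.22 and 9.28 in BxPC3-R, against 9.67, 9.65 and 9.70 in BxPC3. Neither pair overlapped. Its changes were 0.36 (adjusted p = 0.0201) and -0.46 (adjusted p = 0.00482) and differed by 0.82 (adjusted p = 0.000711), and the AsPC1-R call was lost with only its groups in the fit (0.0767) or on leaving out AsPC1 replicate 1 (0.0867), AsPC1 replicate 3 (0.0507) or AsPC1-R replicate 1 (0.0879). EDAR, the ectodysplasin receptor, fell by 0.56 in AsPC1-R (adjusted p = 0.00507). EDA2R, a second ectodysplasin receptor, fell by 0.35 in AsPC1-R (adjusted p = 0.0435) and CD40, a receptor of B cells and myeloid cells, by 0.48 in BxPC3-R (adjusted p = 0.0189), both at levels under 6.22. The EDA2R call was lost on leaving out any AsPC1-R or AsPC1 array, BxPC3-R replicate 2 or BxPC3 replicate 3 (0.0528 to 0.154), with quantile normalization run once more (0.0821), median centring (0.0614) or trend and robust fitting (0.0604). The CD40 call was lost on leaving out BxPC3-R replicate 1 or 3 or BxPC3 replicate 1 or 3 (0.0548 to 0.0795).

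Of 20 adaptors and receptor-proximal genes measured, 5 rose and 2 fell in AsPC1-R, and 0 rose and 7 fell in BxPC3-R, with list medians of 0.08 and -0.18. This is 35% of the list in each, beside 20.3% and 20.8% of all genes. The difference between the derivatives passed for 6 (30%, beside 25.4% of all genes), all more positive in AsPC1-R (14.1% of all genes). TNFAIP3, the deubiquitinase that limits NF-kB, read 8.93, 8.80 and 8.82 in AsPC1-R, against 7.79, 7.94 and 8.17 in AsPC1, and 8.62, 8.40 and 8.61 in BxPC3-R, against 9.47, 9.95 and 9.85 in BxPC3. Its changes were 0.89 (adjusted p = 0.000209) and -1.21 (adjusted p = 1.34e-05). TNIP1, which binds TNFAIP3, changed by 1.10 in AsPC1-R (adjusted p = 2.08e-06) and by -1.20 in BxPC3-R (adjusted p = 1.12e-06). CYLD, another deubiquitinase, changed by 0.77 and -0.74 (adjusted p = 1.89e-05 and 2.77e-05). All 3 are negative regulators of this signalling, and in each the groups did not overlap. TRAF3 changed by 0.38 and -0.43 (adjusted p = 0.0118 and 0.00559), its AsPC1-R call was lost on leaving out replicate 1 of AsPC1 (0.0546) or of AsPC1-R (0.0536), and TRAF5 fell in both, by 0.46 and 0.42 (adjusted p = 0.0011 and 0.00212).

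Of 6 genes measured in the noncanonical NF-kB arm, 4 rose in AsPC1-R, with a median of 0.34, and 2 fell in BxPC3-R, where 11.6% of all genes rose in AsPC1-R and 11% fell in BxPC3-R. NFKB2, whose product p100 is processed to the active subunit, changed by 0.88 in AsPC1-R (adjusted p = 6.98e-06) and by -0.60 in BxPC3-R (adjusted p = 0.00022). MAP3K14, the kinase that drives this processing, changed by 0.65 (adjusted p = 0.000156) in AsPC1-R and 0.08 (adjusted p = 0.645) in BxPC3-R. TRAF3 and BIRC2 are counted in both this list and the adaptors, and the fourth gene that rose is BIRC2, a ligase that restrains MAP3K14 (0.30, adjusted p = 0.0182, lost with only its groups in the fit, 0.062, or on leaving out AsPC1 replicate 1 or AsPC1-R replicate 1 or 2, 0.0522 to 0.0746). Of 6 sheddases and their regulators, 2 rose in AsPC1-R (33.3%, beside 20.3% of all genes), and 1 rose and 2 fell in BxPC3-R (50%, beside 20.8%). ADAM17, the protease that releases TNF, read 10.62, 10.70 and 10.61 in AsPC1-R, against 9.86, 9.87 and 10.00 in AsPC1, and 8.66, 8.68 and 8.83 in BxPC3-R, against 9.49, 9.56 and 9.47 in BxPC3. Neither pair overlapped, and its changes were 0.73 (adjusted p = 1.61e-05) and -0.78 (adjusted p = 9.76e-06). ADAM10, a related protease, rose by 0.24 in AsPC1-R (adjusted p = 0.0334), a call lost with only its groups in the fit (0.118) or on leaving out any AsPC1-R array, AsPC1 replicate 1 or 3, BxPC3-R replicate 2 or BxPC3 replicate 3 (0.0514 to 0.125). RHBDF2, which helps ADAM17 to mature, fell by 0.41 in BxPC3-R (adjusted p = 0.00638). TIMP3, an inhibitor of ADAM17, rose by 0.72 in BxPC3-R (adjusted p = 0.0011), and changed by 0.12 in AsPC1-R (adjusted p = 0.555), where it read 5.25 against 5.13 in AsPC1. Over the 5 lists, 12 of the 13 genes called in BxPC3-R still passed without BxPC3 replicate 2, all but TAB3, as did 14 of the 16 differences between the derivatives, all but EDAR and TIMP3.

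**Figure D4:**
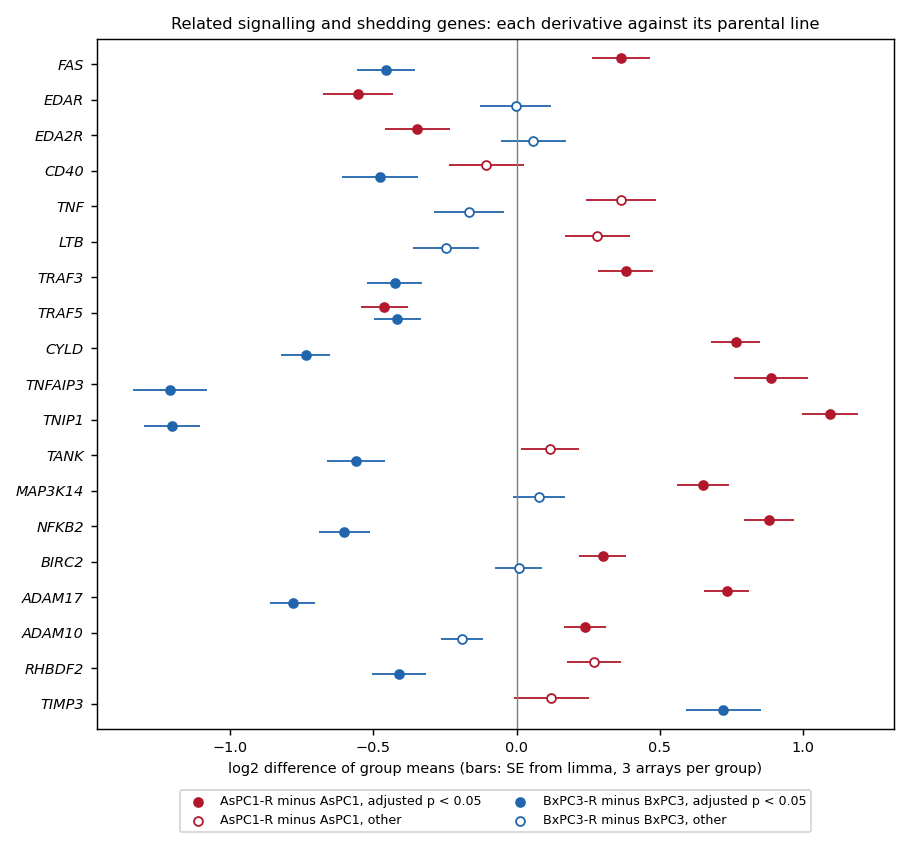
Log2 difference between each derivative and its parental line for 19 genes of the receptor signalling and shedding lists, with standard errors from limma (3 arrays per group); filled points have an adjusted p under 0.05. TNIP1, TNFAIP3, CYLD, NFKB2 and ADAM17 lie to the right of 0 in AsPC1-R and to the left in BxPC3-R.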

How the data were processed

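The deposited values are log2 levels per probe set, made by the authors with Affymetrix Expression Console and RMA per the submitters' processing notes, which corrects background, normalizes arrays by quantiles and summarises probes. Tool versions and the genome build were not given in the sources used here. Of 33297 probe sets, the 19460 with 1 symbol were kept, and the one with the highest mean over the 12 arrays stood for each of 18417 genes. All 12 arrays were fitted with a mean per group (limma 3.58.1 in R 4.3.3, lmFit and eBayes, 8 residual degrees of freedom), two-sided, with Benjamini-Hochberg adjustment over all genes and a threshold of 0.05, and the script was tested on simulated data. The members and lists were chosen with earlier results of these data known. Members called in a derivative or in the difference between the changes, and those at least 1 apart between the parental lines, are given by array, and of each list up to 4 called genes per comparison with the largest change were eligible to be named. Promoters are RefSeq's (GRCh38.p14). Alternatives were a replicate block, dim genes left out, quantile normalization again, median centring, eBayes with a trend and robust spread, a fit of the compared groups alone, averaged probe sets, weights per array and each array left out.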

Additional observations from a re-analysis of the deposited data

Results flagged for a closer look

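For 21 genes the change in AsPC1-R differed from that in BxPC3-R in the limma fit of the difference itself (adjusted p under 0.05). They are 5 of the 24 members (20.8%) and 16 of the 44 genes measured in the 5 related lists, beside 25.4% of all genes. For the 5 members, the change in AsPC1-R minus that in BxPC3-R was 2.77 for TNFSF18, 0.83 for TNFRSF9, 0.49 for TNFRSF21, 0.46 for TNFSF13B and -0.95 for TNFRSF19. TNFSF18, TNFRSF9 and TNFSF13B lay at levels near those of lost genes in 1 or more groups. Among adaptors and receptor-proximal genes the difference was 2.30 for TNIP1, 2.10 for TNFAIP3, 1.5 for CYLD, 0.81 for TRAF3, 0.68 for TANK and 0.57 for TNIP2, which binds TNFAIP3 and was named after its value was seen (lost without AsPC1-R replicate 2, adjusted p = 0.0552, and with quantile normalization run once more, 0.0501). In the noncanonical arm it was 1.48 for NFKB2 and 0.57 for MAP3K14. Among the shedding genes it was 1.52 for ADAM17, 0.68 for RHBDF2, 0.43 for ADAM10 and -0.60 for TIMP3. TIMP3 read 5.25 in AsPC1-R and 5.13 in AsPC1, under the lost-gene reading of 6.22, as did every group mean of TNF. Among the other receptors and ligands it was 0.82 for FAS, -0.55 for EDAR, 0.53 for LTB and 0.53 for TNF, and these calls were lost for EDAR on leaving out any 1 of 8 arrays (adjusted p 0.0598 to 0.0811), for LTB 5 (0.0543 to 0.0683), for TNF 9 (0.0604 to 0.0904) and for TIMP3 6 (0.0503 to 0.0652), the last also with quantile normalization run once more (0.0769).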

How the results depend on the processing

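With replicate number as a block, 7 members passed in AsPC1-R and 5 in BxPC3-R. The 2 changes differed for 6 members, where TNFSF4 was added (-0.59, adjusted p = 0.0378), and 14 between the parental lines, and 3553, 3661, 4525 and 9184 genes. Deviations from the group means of same-numbered arrays in different groups correlated at -0.24 to 0.34 (median 0.03, 3 of 18 pairs over 0.1). Differently numbered pairs correlated at -0.32 to 0.26 (median -0.01, 9 of 36 over 0.1). Because each group mean rests on only 3 arrays, these values cannot show whether same-numbered arrays share a batch. With array weights, 8 members and 6356 genes were called in BxPC3-R and 8 members for the difference, and with dim genes left out 3 for the difference, as TNFRSF9 and TNFSF13B were then not tested. Leaving out 1 array gave 4 to 8 members in AsPC1-R (4 without AsPC1-R replicate 2), 3 to 6 in BxPC3-R (3 without BxPC3 replicate 1 or 2 or BxPC3-R replicate 1 or 3), 5 to 6 for the difference and 12 to 14 between the parental lines. The counts of genes were then 2869 to 4246, 2970 to 4181, 3961 to 5296 and 7729 to 9899. No member's called change turned its direction in a setting tried, and outside the settings that leave out an array, 12 member results came to pass and 4 no longer passed. The depth of an array is not measured, and 6 members lie at levels where a lost gene also reads.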

Other observations

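The probe set shared by TNFSF12 and TNFSF13 had group means of 7.38 ± 0.04 in AsPC1-R and 7.17 ± 0.06 in AsPC1, and 6.72 ± 0.10 in BxPC3-R and 6.88 ± 0.13 in BxPC3 (SD, n = 3 each). The probe set shared by RTEL1 and TNFRSF6B averaged 7.44 in AsPC1-R and 7.41 in AsPC1, and 7.27 in BxPC3-R and 7.27 in BxPC3. Neither was tested, because its values cannot be assigned to 1 gene. Of the 24 members, 4 pairs are neighbours in RefSeq (TNFRSF18 and TNFRSF4, TNFRSF8 and TNFRSF1B, TNFSF18 and TNFSF4, TNFSF15 and TNFSF8).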
